A study of Mus musculus with 3 samples.

Results

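Barcodes with almost no mitochondrial RNA were described in 3 single-cell libraries of the gastrulating mouse embryo. They were chosen by rule, from raw counts of unique molecular identifiers (UMIs, 1 per captured RNA molecule), as barcodes with 1000 or more detected genes in which the 13 protein-coding genes of the mitochondrial genome made up under 0.5% of all UMIs. The rule found 733 such low-mitochondrial barcodes among 27873 barcodes, of which 22082 had 1000 or more detected genes. They were compared with 20720 barcodes of the same libraries that also had 1000 or more genes and took 1 to 10% of their UMIs from mitochondrial genes, called comparison barcodes here. The working name for the chosen barcodes was nucleus-like droplets, with Malat1 as marker. Malat1 was lower in them than in the comparison barcodes in all 3 libraries, against that name, so they are called low-mitochondrial barcodes throughout.

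The embryos were labelled normal, of the ARC mouse strain, and were taken at embryonic day E7.0 or E7.25, with another set from the posterior part at E7.5, and 1 library was made of each. Trypsin freed the cells, which were strained at 40 µm, and a droplet chip was loaded for a target of 10000 cells per library, and 3′ ends of polyadenylated RNA were sequenced. The number of embryos behind each library and the chemistry version of each are not stated in the sources used here. Stage and library cannot be told apart, so no difference between stages was tested, and the 3 libraries served as replicates of the difference between low-mitochondrial and comparison barcodes.

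In droplet data, an intact cell releases nuclear, cytoplasmic and mitochondrial RNA into its droplet. A bare nucleus is known for a low share of mitochondrial transcripts together with a high share of RNAs that stay in the nucleus, such as Malat1, a long noncoding RNA of nuclear speckles, and Xist, which coats the inactive X chromosome. Messages for secreted and membrane proteins are translated at the endoplasmic reticulum, which is continuous with the nuclear envelope, whereas messages for ribosomal proteins are translated on free ribosomes in the cytosol.

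The low-mitochondrial barcodes numbered 303 at E7.0, 85 at E7.25 and 345 in the E7.5 posterior library. They were 3.77% of the barcodes with 1000 or more genes at E7.0 (exact binomial 95% interval by Clopper-Pearson, 3.36 to 4.21%), 1.60% at E7.25 (1.28 to 1.98%) and 3.95% in the E7.5 posterior library (3.55 to 4.38%). These intervals, like all others here, cover counting error only. A further 57, 33 and 30 barcodes in the 3 libraries lay between 0.5 and 1% and entered neither group. The libraries shared 14 to 35 barcode sequences in pairs, and 3 low-mitochondrial barcode sequences were among them, with 0 that were low-mitochondrial in both libraries. A doublet score marked 1, 0 and 1 of them.

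The low-mitochondrial barcodes were shallower than the comparison barcodes. Their median was 3646 UMIs at E7.0, 3079 at E7.25 and 4021 in the E7.5 posterior library, against 11599, 8351.5 and 9454 UMIs in comparison barcodes. The median number of detected genes was 1397, 1353 and 1455 in low-mitochondrial barcodes and 3127, 2709 and 2806 in comparison barcodes. Summed, the low-mitochondrial barcodes held 1243133, 308612 and 1461047 UMIs outside the mitochondrial genes, so the E7.25 values are the least precise. The comparison barcodes held 104097077, 45569444 and 83083359 such UMIs. Levels are given below as CPM, the UMIs of a gene per 1000000 non-mitochondrial UMIs of the summed barcodes. A log2 ratio is always that of low-mitochondrial over comparison barcodes. Lists of 3 values run by stage, with E7.0 first and the E7.5 posterior library last.

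The rule used the mitochondrial share, so its values are a description. The median share was 0.112%, 0.150% and 0.0977% in low-mitochondrial barcodes, against 2.30%, 2.42% and 3.49% in comparison barcodes. No mitochondrial UMI at all was found in 15, 1 and 26 of the low-mitochondrial barcodes. The median log2 ratio of the mitochondrial genes was −4.23 at E7.0, −4.03 at E7.25 and −4.90 in the E7.5 posterior library, and no gene among them was above 0 in any library.

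Malat1 (ENSMUSG00000092341, a single-exon noncoding gene at 5795690 to 5802672 on the minus strand of chromosome 19 in the GENCODE annotation of GRCm38) was low in the low-mitochondrial barcodes. It had 633 CPM at E7.0 (95% Poisson interval 590 to 679), 632 CPM at E7.25 (546 to 727) and 681 CPM in the E7.5 posterior library (639 to 725), against 3319, 2116 and 2596 CPM in comparison barcodes. The highest low-mitochondrial value, 681 CPM, lay below the lowest comparison value, 2116 CPM. The fitted log2 ratio was −2.03 ± 0.11 (SE, 3 libraries), with an adjusted p of 2.37e-07 in edgeR's quasi-likelihood test with Benjamini-Hochberg adjustment over all genes tested. Because the gene was named with results of these data known, that p stands beside the description and is not independent support for it. By library, the log2 ratio was −2.39, −1.74 and −1.93.

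Single barcodes showed the same low level. The median low-mitochondrial barcode held 1 Malat1 UMI in each library, against 36, 15 and 22 UMIs in comparison barcodes. No Malat1 UMI was found in 151 of the low-mitochondrial barcodes at E7.0 (49.8%), 31 at E7.25 (36.5%) and 122 in the E7.5 posterior library (35.4%), against 1.39%, 0.630% and 0.422% of comparison barcodes. Since the groups differed in depth, all barcodes were also thinned to 2500 non-mitochondrial UMIs, which kept 251, 68 and 305 of the low-mitochondrial barcodes and 7523, 5038 and 8016 of the comparison barcodes. At equal depth Malat1 was detected in 40.6%, 50% and 57.0% of low-mitochondrial barcodes, against 97.6%, 95.6% and 97.8% of comparison barcodes. Actb, the cytoplasmic actin message, was detected in 100% of the thinned low-mitochondrial barcodes of every library, against 99.8%, 100% and 99.9% of comparison barcodes.

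A minority of the low-mitochondrial barcodes carried much of their Malat1. At E7.0, 22 barcodes with 10 or more Malat1 UMIs held 521 of the 787 Malat1 UMIs (66.2%). At E7.25, 4 such barcodes held 65 of 195 UMIs (33.3%), and in the E7.5 posterior library 27 held 354 of 995 (35.6%). These were 7.26%, 4.71% and 7.83% of the low-mitochondrial barcodes, against 92.4%, 72.2% and 85.0% of comparison barcodes with 10 or more Malat1 UMIs. The median Malat1 share of non-mitochondrial UMIs was 0.0120%, 0.0330% and 0.0337% in low-mitochondrial barcodes, against 0.301%, 0.185% and 0.235% in comparison barcodes. Without the barcodes of 10 or more Malat1 UMIs the level of the low-mitochondrial barcodes was 237, 462 and 485 CPM. The highest single barcode held 64 Malat1 UMIs at E7.0, so barcodes rich in Malat1 were present but few.

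**Figure D1:**
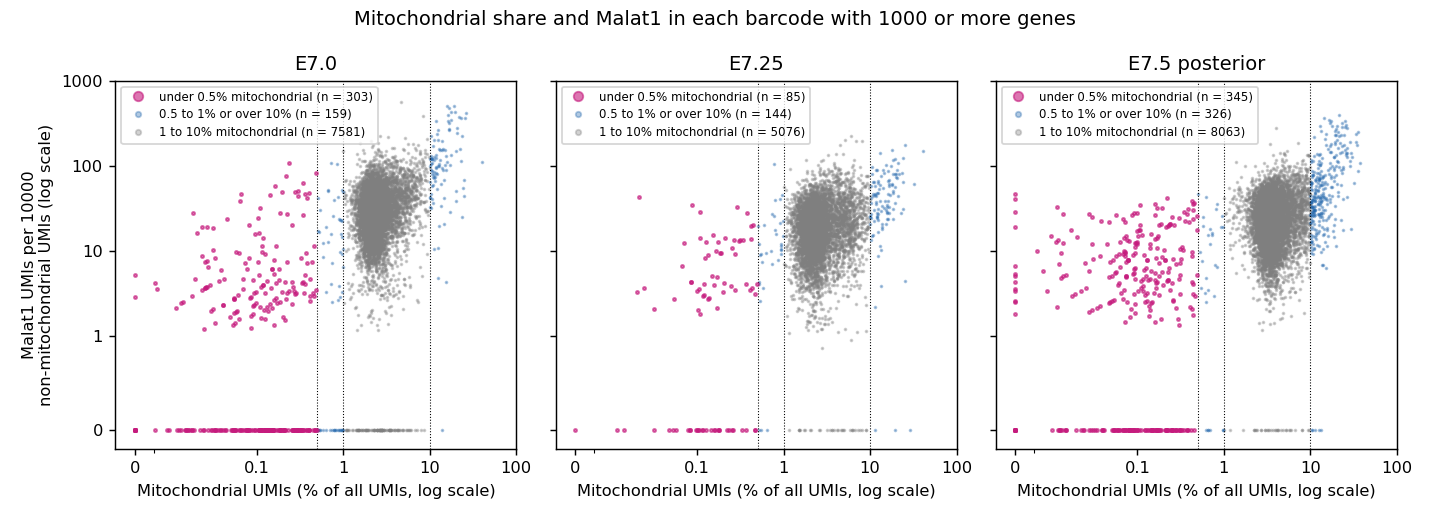
Each point is 1 barcode with 1000 or more detected genes, with its mitochondrial share in percent of all UMIs on the x axis and its Malat1 UMIs per 10000 non-mitochondrial UMIs on the y axis, both on log scales with 0 added at the low end, in 1 panel per library; low-mitochondrial barcodes are magenta, comparison barcodes grey and all others blue. The 151, 31 and 122 low-mitochondrial barcodes without a Malat1 UMI lie along the bottom, and most others lie below the bulk of the comparison barcodes.

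Across the whole range of mitochondrial shares, Malat1 was higher at higher shares, though not at every step. Barcodes with 0 to 0.1% mitochondrial UMIs had 364, 459 and 580 CPM of Malat1 in the E7.0, the E7.25 and the E7.5 posterior library. Barcodes with 2 to 5% had 3285, 2153 and 2531 CPM, and barcodes above 10%, which entered neither group, had 12709, 4725 and 5814 CPM. Barcodes just inside it, with 0.25 to 0.5%, had 1342, 1112 and 877 CPM (63, 23 and 59 barcodes), and barcodes just outside, with 0.5 to 0.75%, had 2779, 1415 and 1390 CPM (26, 17 and 20 barcodes). At the edge on detected genes, the 49, 10 and 34 barcodes under 0.5% within the first 100 genes above the limit had 441, 663 and 516 CPM, and the 59, 9 and 33 within the 100 genes below it had 521, 573 and 866 CPM.

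The other nuclear-retained RNAs were low as well. Of 19 noncoding RNAs listed as nuclear-retained, 14 had enough counts to be tested, 13 of them were lower in low-mitochondrial barcodes and 1 was higher, with a median log2 ratio of −2.05. Over all 7543 genes tested, 29.4% were lower (2218 genes) and 4.71% were higher (355 genes), 34.1% in either direction, with a median of −0.23. Neat1, Miat, Airn, Jpx and Pvt1 were too low to be tested. Leaving out the E7.5 posterior library left 10 of the 13 lower calls, and leaving out the E7.0 library left 12. Over all genes tested, lower calls numbered 1188 of 7377 without E7.0, 2545 of 7155 without E7.25 and 967 of 7256 without E7.5 posterior. Higher calls numbered 90, 678 and 73 in that order. List counts without a library, here and below, stand beside these values and not beside 29.4% and 4.71%.

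Meg3, an imprinted maternally expressed noncoding RNA, had 72.4, 81.0 and 60.2 CPM in low-mitochondrial barcodes and 444, 694 and 563 CPM in comparison barcodes (log2 ratio −2.96, SE 0.14). Xist had 12.9, 22.7 and 21.9 CPM in low-mitochondrial barcodes, against 165, 257 and 417 CPM in comparison barcodes (log2 ratio −3.97, SE 0.17). Kcnq1ot1, a paternally expressed antisense RNA of an imprinted cluster, had 7.24, 9.72 and 4.79 CPM in low-mitochondrial barcodes, which is 9, 3 and 7 UMIs, and 135, 144 and 118 CPM in comparison barcodes. Each of these 3 genes was lower in every library, and 58.0% of all genes tested differed in the same direction in all 3 libraries. Their adjusted p in edgeR's quasi-likelihood test was 1.67e-07 for Meg3, 1.37e-07 for Xist and 1.67e-07 for Kcnq1ot1. Xist overlaps Tsix on the opposite strand and Kcnq1ot1 lies inside Kcnq1, and whether the counting used strand is not given in the sources used here, so reads of such overlapping partners cannot be told apart. At equal depth Xist was detected in 3.19%, 4.41% and 3.61% of low-mitochondrial barcodes, against 23.3%, 36.7% and 51.7% of comparison barcodes.

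The exception among the nuclear list was Gm42418, a transcript annotated within the ribosomal RNA unit of chromosome 17, whose reads may include ribosomal RNA. It had 5257, 2003 and 707 CPM in low-mitochondrial barcodes and 2212, 1966 and 531 CPM in comparison barcodes. The log2 ratio was 0.57 ± 0.16 (SE), with an adjusted p of 0.0174. The call rested on 1 library, since without E7.0 the log2 ratio was 0.22 and no longer passed. It was −0.46 when both groups were limited to the middle depth range of the low-mitochondrial barcodes. AY036118, a transcript whose annotated interval lies within that of Gm42418, so that reads of the pair cannot be told apart, had 195, 97.2 and 172 CPM in low-mitochondrial barcodes, against 66.8, 85.9 and 53.7 CPM in comparison barcodes (log2 ratio 1.32, adjusted p 0.000495, edgeR), and its ratio was 0.03 at limited depth. Gm26917, a neighbour of Gm42418 chosen after its values were seen, went the other way, with 21.7, 48.6 and 19.2 CPM in low-mitochondrial barcodes and 139, 282 and 158 CPM in comparison barcodes (log2 ratio −2.79).

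**Figure D2:**
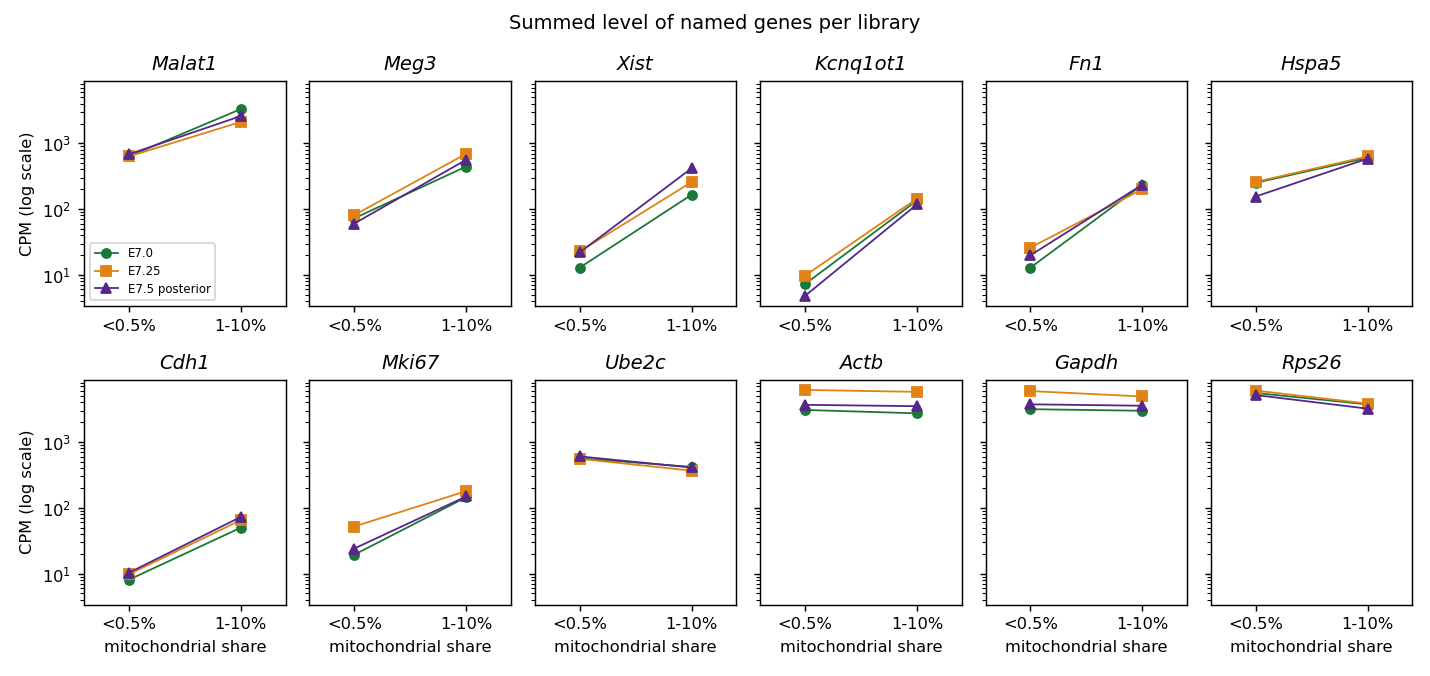
Levels in CPM on a log axis of 12 genes described in the text, with low-mitochondrial barcodes (under 0.5%) on the left and comparison barcodes (1 to 10%) on the right of each panel, and 1 line per library. Malat1 lay at 632 to 681 CPM in low-mitochondrial barcodes, against 2116 to 3319 CPM in comparison barcodes, while Actb and Gapdh lay close together in both.

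Messages that encode nuclear proteins were next. Of 25 messages for chromatin regulators, 25 were lower in low-mitochondrial barcodes and 0 were higher, with a median log2 ratio of −1.34. Over all genes tested 29.4% were lower, and of 989 genes with a longest transcript over 6 kb 753 were. The median length in this list was 9566 bases. Chd4, the ATPase of the nucleosome remodelling and deacetylase complex, had 141, 227 and 157 CPM in low-mitochondrial barcodes, against 423, 443 and 411 CPM in comparison barcodes (log2 ratio −1.34, adjusted p 1.95e-05, edgeR). Smarca4, the ATPase of the BAF remodelling complex, had 70.8, 172 and 97.2 CPM in low-mitochondrial barcodes, against 189, 285 and 223 CPM in comparison barcodes (log2 ratio −1.15). Both were lower in all 3 libraries, and 58.0% of all genes tested differed in the same direction in all 3. Atrx, a remodeller of heterochromatin, had a log2 ratio of −1.39 and Smarca5, the ISWI ATPase, one of −0.46. Smarca5 no longer passed without E7.0 or without E7.5 posterior (−0.35 and −0.38).

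Messages for splicing factors and speckle proteins were lower for 21 of 32 and higher for 0, beside 29.4% lower over all genes tested. Their median log2 ratio was −0.59. The count of lower calls was 12 without the E7.5 posterior library, 13 with TMM factors and 10 with DESeq2, each of the last pair with 2 higher. Over all genes tested 967 of 7256, 1387 of 7543 and 880 of 7543 were lower in that order. With TMM factors 1470 of all genes were higher, and with DESeq2 1096. Srsf3, Hnrnpa2b1 and Ddx5, among the 4 most abundant of them, did not pass the test, with log2 ratios of 0.02, −0.22 and 0.06. Son and Srrm2, long messages for core speckle proteins that were chosen after their values were seen, had log2 ratios of −1.20 and −1.03. Ogt, whose message is partly retained in the nucleus through a detained intron, had 6.44, 16.2 and 14.4 CPM in low-mitochondrial barcodes and 43.5, 48.4 and 60.1 CPM in comparison barcodes (log2 ratio −2.20, chosen after its values were seen).

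Ribosomal protein messages took a slightly larger share in the low-mitochondrial barcodes. Their median share of non-mitochondrial UMIs per barcode was 31.5%, 31.7% and 33.5% in low-mitochondrial barcodes, against 29.4%, 28.2% and 29.0% in comparison barcodes. The middle ranges of the groups overlapped at E7.0, where the quartiles were 27.4 and 34.1% in low-mitochondrial barcodes and 27.7 and 30.6% in comparison barcodes. Of 84 genes 81 were tested, 47 were higher and 0 were lower, with a median log2 ratio of 0.17. Over all genes tested 4.71% were higher, and of 536 genes with a longest transcript under 1 kb 125 were. The count of 47 changed with the libraries used and with the scaling. It was 3 without the E7.5 posterior library, 57 without E7.0 and 37 without E7.25. Over all genes tested those fits had 73 of 7256, 90 of 7377 and 678 of 7155 higher. The median log2 ratio of the list moved little in them, at 0.14, 0.20 and 0.16. By library, 75, 80 and 81 of 81 genes lay above 0. The count was 81 with TMM factors. That scaling between samples moves all ratios up here, and with it 19.5% of all genes tested were higher. No gene of the list was lower under any of these settings.

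Rpl41 had 9859, 9034 and 9962 CPM in low-mitochondrial barcodes and 9228, 8256 and 8484 CPM in comparison barcodes (log2 ratio 0.15, adjusted p 0.0206, edgeR). Rps12 had 7084, 8383 and 7816 CPM in low-mitochondrial barcodes, against 6363, 6948 and 6211 CPM in comparison barcodes (log2 ratio 0.25, adjusted p 0.0024). Neither passed without E7.5 posterior, at 0.11 for Rpl41 and 0.21 for Rps12. Rps26, chosen after its values were seen, had the highest ratio of the 81 tested, with 5555, 6043 and 5165 CPM in low-mitochondrial barcodes, against 3726, 3826 and 3207 CPM in comparison barcodes. Its log2 ratio was 0.64 ± 0.05 (SE), with an adjusted p of 7.13e-06, and it kept its call without each library in turn. Rps26 has many processed pseudogenes, and how reads shared with them were counted is not given in the sources used here.

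Messages for other abundant cytosolic proteins had ratios close to 0. Of 18 translation factor messages 2 were higher and 1 was lower, with a median log2 ratio of 0.09, and of 18 cytoskeleton messages 5 were higher and 0 were lower, with a median of 0.16. With TMM factors 14 and 15 of them were higher and 0 lower. Over all genes tested 4.71% were higher with totals alone and 19.5% with TMM factors. Eef1a1, the elongation factor that brings transfer RNA to the ribosome, had a log2 ratio of 0.08 and Tpt1, another abundant message of this class, one of 0.15. Actb had 3066, 6183 and 3667 CPM in low-mitochondrial barcodes, against 2725, 5771 and 3496 CPM in comparison barcodes, and did not pass (log2 ratio 0.11, adjusted p 0.121, edgeR). Tmsb10, an actin-binding peptide, was higher at 0.31 with all libraries and did not pass without E7.5 posterior (0.28). Without that library 0 of the cytoskeleton messages and 0 of the translation factor messages were called. Without E7.0 the counts were 1 and 0, and without E7.25 8 cytoskeleton messages were higher and 1 lower.

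Of 14 glycolysis messages tested, 3 were lower and 0 were higher, and with TMM factors 3 were lower and 7 higher. Over all genes tested 29.4% were lower, and with TMM factors 18.4% were lower and 19.5% higher. Gapdh had 3148, 5940 and 3732 CPM in low-mitochondrial barcodes, against 2979, 4910 and 3552 CPM in comparison barcodes, and did not pass (log2 ratio 0.14). Pkm, Ldha and Pgam1, also enzymes of the pathway, had log2 ratios of 0.03, −0.04 and −0.01, none of which passed. The 3 lower calls were Slc2a1 and Slc2a3, glucose transporters of the plasma membrane, and Hk2, the hexokinase of the outer mitochondrial membrane, with log2 ratios of −0.92, −1.29 and −0.79. They were singled out after their values were seen.

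Nuclear-encoded messages of the respiratory chain were not low in the way the mitochondrial-encoded ones were. Of 32 tested, 12 were higher and 0 were lower, with a median log2 ratio of 0.21, and with TMM factors 28 were higher. Over all genes tested 4.71% were higher, and 19.5% with TMM factors. The median length in this list was 681 bases, and all tested genes under 1 kb had a median log2 ratio of 0.17. The higher calls in the list were few without E7.0 (1) or without E7.5 posterior (0), and 20 without E7.25. Cox7c and Cox4i1, subunits of cytochrome c oxidase, had log2 ratios of 0.14 and 0.04 and did not pass, and Atp5b, the catalytic subunit of ATP synthase, had −0.03. Cox8a, also an oxidase subunit, had 0.25 and lost its call without E7.0 or without E7.5 posterior (0.22 and 0.18). Slc25a4, the ADP/ATP carrier of the inner mitochondrial membrane, had 775, 441 and 477 CPM in low-mitochondrial barcodes, against 374, 440 and 289 CPM in comparison barcodes (log2 ratio 0.63, adjusted p 0.00826, edgeR), and 0.39 without E7.0, which did not pass.

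Messages of the endoplasmic reticulum and of secreted proteins were lower for 15 of 19 and higher for 2, with a median log2 ratio of −1.32. Over all genes tested 29.4% were lower and 4.71% higher. Fn1, the extracellular matrix protein fibronectin, had 12.9, 25.9 and 19.8 CPM in low-mitochondrial barcodes, which is 16, 8 and 29 UMIs, against 234, 200 and 235 CPM in comparison barcodes. Its log2 ratio was −3.69 ± 0.18 (SE), with an adjusted p of 2.15e-07 in edgeR's quasi-likelihood test. At equal depth Fn1 was detected in 3.59%, 7.35% and 3.93% of low-mitochondrial barcodes, against 34.6%, 32.4% and 35% of comparison barcodes. The groups lay far apart in every library.

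The chaperones of the reticulum were also low. Hspa5, the Hsp70 of the reticulum, had 251, 259 and 155 CPM in low-mitochondrial barcodes and 603, 632 and 586 CPM in comparison barcodes (log2 ratio −1.50, chosen after its values were seen). Hsp90b1, the Hsp90 of the reticulum, had 303, 434 and 211 CPM in low-mitochondrial barcodes and 866, 741 and 816 CPM in comparison barcodes (log2 ratio −1.44, adjusted p 8.54e-05, edgeR). Calr, the lectin calreticulin, had a log2 ratio of −0.87. The pair of higher messages were Sec61g and Sec61b, the small tail-anchored subunits of the translocation channel. Sec61g had 1238, 661 and 1057 CPM in low-mitochondrial barcodes and 855, 525 and 815 CPM in comparison barcodes (log2 ratio 0.42, adjusted p 0.00248), and Sec61b had a log2 ratio of 0.28, which did not pass without E7.0 or without E7.5 posterior (0.23 and 0.21).

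**Figure D3:**
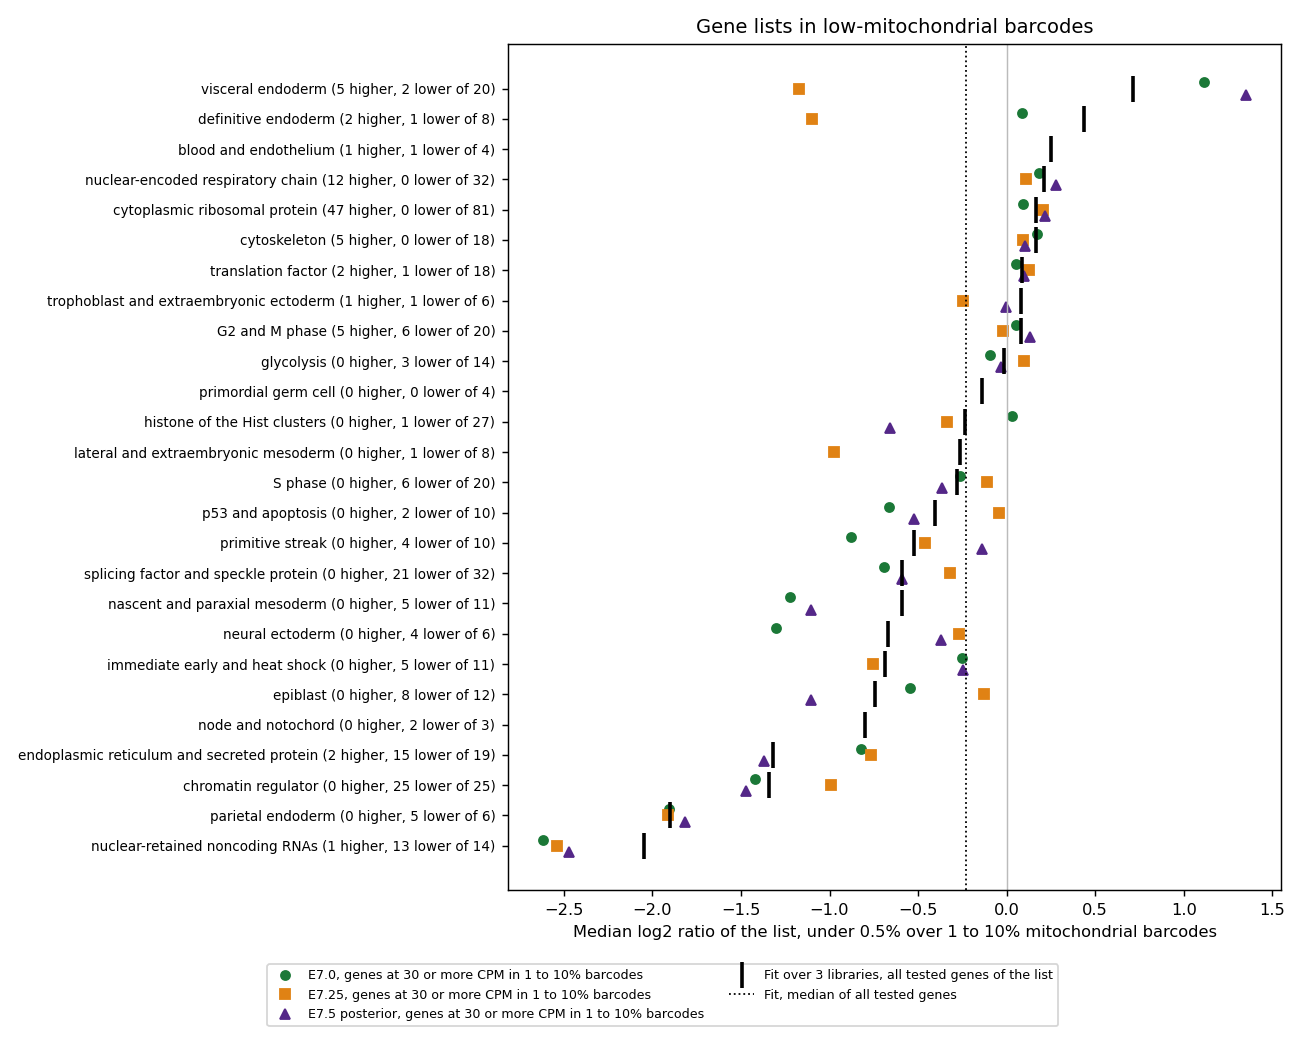
Median log2 ratio of low-mitochondrial over comparison barcodes for each gene list, with a bar for the fit over all tested genes of the list and 1 symbol per library over genes of 30 or more CPM in comparison barcodes, shown where 3 or more genes reach that level. Nuclear-retained RNAs, chromatin regulators and messages of the endoplasmic reticulum lay below the median of all tested genes (dotted line, −0.23), and ribosomal protein messages lay above 0 in all 3 libraries.

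The ratio followed transcript length. Genes whose longest transcript is under 1 kb had a median log2 ratio of 0.17 (536 genes, 125 higher and 10 lower). Genes of 2 to 3 kb had a median of −0.11 (1633 genes, 54 higher and 264 lower), and genes over 6 kb had −1.17 (989 genes, 3 higher and 753 lower). Across genes, the Spearman correlation of ratio and length was −0.56 at E7.0 (3930 genes), −0.47 at E7.25 (4264 genes) and −0.64 in the E7.5 posterior library (4061 genes), and genes are not independent replicates. The gradient had the same direction in each library, with medians of −1.12, −0.91 and −1.16 over 6 kb and 0.14, 0.14 and 0.21 under 1 kb.

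**Figure D4:**
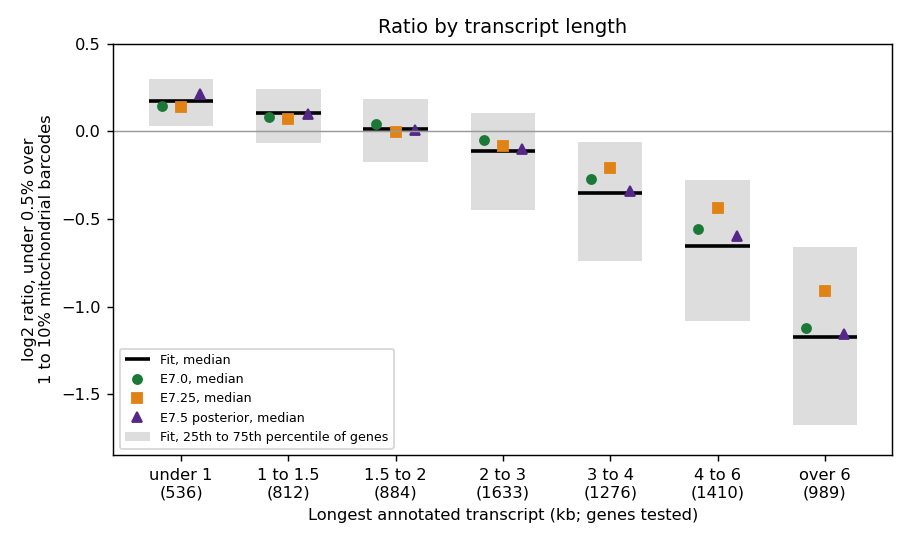
Log2 ratio of low-mitochondrial over comparison barcodes by length of the longest annotated transcript in kilobases, with a line for the median of the fit, a grey box for the 25th to 75th percentile of genes and 1 symbol per library for its own median over genes of 30 or more CPM. The median of the fit was 0.17 under 1 kb and −1.17 over 6 kb.

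Several lists above hold long transcripts, so their medians were also taken relative to tested genes of the same length bin, a step added after the data were seen. The last bin, over 6 kb, has no upper limit. Kcnq1ot1 (93092 bases), Xist (17946) and Meg3 (14548) were therefore set beside all genes over 6 kb, and length is only partly matched for them. Relative to length, the median was −1.37 for the nuclear-retained RNAs, against −2.05 as measured, and −0.77 for the messages of the endoplasmic reticulum, against −1.32. The chromatin regulators had −0.19 relative to length, against −1.34, and the splicing factors −0.15, against −0.59. Ribosomal protein messages, which are mostly short, had 0.03, against 0.17. Length and the place where a message is translated vary together in these lists, and their parts in the result were not tested separately.

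The extremes of the table showed the same contrast. The rule for these took genes of 50 or more CPM on average, past the threshold in the same direction in all 3 libraries, without ribosomal protein, mitochondrial, Gm and Rik genes. The 12 lowest ratios among them were those of Kcnq1ot1, Xist, Fn1, Sptbn1, Flna, Prtg, Iqgap1, Akap9, Meg3, Bod1l, Dync1h1 and Cubn. Sptbn1, the spectrin of the membrane skeleton, had 10.5, 19.4 and 5.48 CPM in low-mitochondrial barcodes and 98.8, 146 and 107 CPM in comparison barcodes (log2 ratio −3.56). Flna, the actin cross-linker filamin, had a log2 ratio of −3.14 and Prtg, a membrane receptor of the early embryo, one of −3.13. The rule takes only genes that differ in the same direction in all libraries, so their agreement between libraries is no result.

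The 12 highest ratios by the same rule were smaller in size, at 0.59 to 1.32, and belonged to AY036118, Cib1, Hadh, Commd3, Chmp2b, Etfb, Cstb, Slc25a4, Trappc1, Hsbp1, Tpd52 and Acot13. Cib1, a calcium-binding protein, had 158, 123 and 117 CPM in low-mitochondrial barcodes and 67.1, 92.0 and 56.0 CPM in comparison barcodes (log2 ratio 0.99, adjusted p 0.000416, edgeR). Hadh and Etfb, enzymes of fatty acid oxidation in the mitochondrial matrix, had log2 ratios of 0.68 and 0.64. Without E7.0 neither passed, at 0.35 and 0.42, nor did Commd3 (0.25), Slc25a4 (0.39), Hsbp1 (0.39), Tpd52 (0.38) and Acot13 (0.44). Chmp2b and Trappc1 also lost the call but at ratios of 0.62 and 0.55, against 0.66 and 0.63 with all libraries. Ratios of this set were also smaller with barcodes of 5 or more visceral endoderm genes left out of both groups. Hadh then had 0.077, Hsbp1 0.28, Tpd52 0.29, Acot13 0.34, Etfb 0.40 and Cib1 0.45, while Trappc1 had 0.55 and AY036118 1.18. Of 39 genes named here that were higher, 7 kept the call without each library in turn, and of 76 that were lower, 53 did.

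Cell cycle messages did not move as a block. Of 20 messages of G2 and M phase 5 were higher and 6 were lower, with a median log2 ratio of 0.08, and without E7.5 posterior the median was −0.04. The count of higher calls was 1 without E7.0, 1 without E7.5 posterior, 8 without E7.25 and 10 with TMM factors. Over all genes tested 4.71% were higher and 29.4% lower, and 19.5% were higher with TMM factors. Ube2c, the ubiquitin-conjugating enzyme of the anaphase-promoting complex, had 566, 554 and 603 CPM in low-mitochondrial barcodes, against 417, 367 and 409 CPM in comparison barcodes (log2 ratio 0.53, adjusted p 0.00109, edgeR). Mki67, a long message for a protein of the mitotic chromosome surface that was chosen after its values were seen, had 19.3, 51.8 and 24.0 CPM in low-mitochondrial barcodes, against 145, 179 and 148 CPM in comparison barcodes (log2 ratio −2.55). Top2a, the topoisomerase of chromosome condensation, had a log2 ratio of −0.64, and Cenpf, a long message for a kinetochore protein chosen after its values were seen, −1.48. Of 20 S phase messages 6 were lower, close to the 29.4% over all genes, and 1 to 12 were lower when each library was left out, while with TMM factors 2 were lower and 2 higher. Mcm7 and Rrm2, of the replicative helicase and of nucleotide synthesis, had −0.11 and −0.02 and did not pass.

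Of the stress messages tested, none was higher with totals alone. Of 10 messages of the p53 and apoptosis list 2 were lower and 0 were higher, beside 29.4% lower over all genes, and 0 were lower without E7.0 or without E7.5 posterior and 4 without E7.25. Bax, the pore-forming effector of apoptosis, had a log2 ratio of −0.02 and Mdm2, the p53 ligase, −0.19, and neither passed. Of 11 immediate early and heat shock messages 5 were lower and 0 were higher, beside 29.4% lower over all genes. With TMM factors 1 was higher. Without E7.5 posterior 3 were lower. Hspa8 had a log2 ratio of −0.04 and did not pass. Jun, a nuclear transcription factor chosen after its values were seen, had 20.9, 9.72 and 18.5 CPM in low-mitochondrial barcodes, against 53.7, 132 and 68.4 CPM in comparison barcodes (log2 ratio −1.92). Of 27 histone messages 1 was lower and 0 were higher, 0 to 2 were lower without each library, and with TMM factors 0 were lower and 1 higher.

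Lineage genes were detected in the low-mitochondrial barcodes. After thinning, 2 or more of 12 epiblast genes were found in 63.3%, 60.3% and 49.8% of low-mitochondrial barcodes, against 81.7%, 62.0% and 71.9% of comparison barcodes. For the nascent and paraxial mesoderm list the shares were 12%, 13.2% and 19.0% in low-mitochondrial barcodes and 33.4%, 17.0% and 26.7% in comparison barcodes. For the primitive streak list they were 29.1%, 17.6% and 17.4% in low-mitochondrial barcodes, against 45.5%, 15.8% and 26.2% in comparison barcodes, so at E7.25 the order was the opposite by a small margin. The part of free embryonic RNA in these shares was not tested.

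Epiblast genes did not move alike. Of 12 tested 8 were lower and 0 were higher, with a median log2 ratio of −0.74, beside 29.4% lower over all genes tested. Without E7.5 posterior 5 were lower, with a median of −0.46, and with DESeq2 3 were. Over all genes tested 967 of 7256 were lower without E7.5 posterior and 880 of 7543 with DESeq2. Pou5f1, the pluripotency factor, had 417, 434 and 496 CPM in low-mitochondrial barcodes and 609, 351 and 558 CPM in comparison barcodes, which overlap, and did not pass (log2 ratio −0.16). Dnmt3b, the de novo DNA methyltransferase, had 377, 564 and 352 CPM in low-mitochondrial barcodes, against 670, 642 and 751 CPM in comparison barcodes (log2 ratio −0.72, adjusted p 0.00215, edgeR). Cdh1, the adhesion receptor E-cadherin, chosen after its values were seen, had 8.04, 9.72 and 10.3 CPM in low-mitochondrial barcodes, which is 10, 3 and 15 UMIs, against 49.8, 65.0 and 72.5 CPM in comparison barcodes. Its log2 ratio was −2.74 ± 0.22 (SE), with an adjusted p of 6.74e-06. Epcam, another membrane adhesion protein, had −0.63, and −0.40 without E7.5 posterior, which did not pass.

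Streak and mesoderm genes were mixed. Of 10 streak genes 4 were lower and of 11 nascent and paraxial mesoderm genes 5 were lower, with 0 higher in either list, beside 29.4% lower over all genes tested. The streak count was 1 without E7.0, 7 without E7.25, 2 with TMM factors and 1 with DESeq2. Over all genes tested 1188 of 7377, 2545 of 7155, 1387 of 7543 and 880 of 7543 were lower in that order. T, the transcription factor brachyury, had 35.4, 139 and 140 CPM in low-mitochondrial barcodes and 102, 145 and 233 CPM in comparison barcodes (log2 ratio −0.80), and did not pass without E7.0 (−0.48). Eomes, a T-box factor, had a log2 ratio of −1.44. Mesp1, the factor of nascent mesoderm, had 278, 314 and 392 CPM in low-mitochondrial barcodes and 624, 298 and 322 CPM in comparison barcodes, with a log2 ratio of −0.29 that did not pass and that was lower at E7.0 only. Lefty2, a secreted Nodal inhibitor, had 33.0, 32.4 and 38.3 CPM in low-mitochondrial barcodes and 143, 50.2 and 82.3 CPM in comparison barcodes (log2 ratio −1.48, adjusted p 0.000411, edgeR). Kdr, the VEGF receptor of blood and endothelial progenitors, had 0, 13.0 and 1.37 CPM in low-mitochondrial barcodes, which is 0, 4 and 2 UMIs, against 23.3, 22.9 and 13.2 CPM in comparison barcodes.

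Lineage genes were also sorted by the site of the protein, a grouping made by hand after the values were seen. Over all lineage lists, 18 of 37 genes for secreted or membrane proteins were lower and 2 higher, with a median of −0.53, and 11 of 41 genes for nuclear regulators were lower and 3 higher, with a median of −0.30. By library the medians were −0.15, −1.22 and −1.01 for secreted or membrane proteins and −0.85, −0.23 and −0.27 for nuclear regulators, so at E7.0 the order was the opposite. Without the visceral endoderm list, of 22 genes for secreted or membrane proteins 16 were lower and 0 were higher, with a median log2 ratio of −1.40, and by library −1.37, −0.91 and −1.18. Of 39 genes for nuclear regulators 11 were lower and 2 were higher, near the 29.4% and 4.71% over all genes tested, with a median of −0.30, and by library −0.88, −0.21 and −0.37. Relative to genes of like transcript length the medians were −1.06 for the secreted or membrane proteins and −0.19 for the nuclear regulators. The parietal endoderm list, mostly matrix proteins, had 5 lower of 6 tested with a median of −1.90. Col4a1, a basement membrane collagen, had 15.3, 9.72 and 12.3 CPM in low-mitochondrial barcodes and 57.3, 93.9 and 49.3 CPM in comparison barcodes (log2 ratio −2.13).

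Endoderm factors included the higher calls among nuclear regulators. Sox17, a transcription factor of endoderm, had 106, 22.7 and 42.4 CPM in low-mitochondrial barcodes, against 40.4, 18.4 and 16.1 CPM in comparison barcodes (log2 ratio 1.25, adjusted p 0.000629, edgeR). It was higher in every library, on 7 UMIs at E7.25. Hhex, a homeobox factor of anterior endoderm chosen after its values were seen, had a log2 ratio of 0.96, and −0.02 at limited depth. Trh, the thyrotropin-releasing hormone precursor and a secreted peptide, had −0.88. Of 8 definitive endoderm genes 2 were higher and 1 was lower, beside 4.71% and 29.4% over all genes tested. In this list 1 was higher without E7.0, 4 were higher without E7.25, and 1 was higher and 3 lower at limited depth. At limited depth 156 of 8006 genes tested were higher and 1607 lower. Both Sox17 and Hhex are also expressed in visceral endoderm.

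Genes of visceral endoderm, the absorptive layer around the epiblast, gave ratios of opposite direction in different libraries. After thinning, 5 or more of 20 visceral endoderm genes were found in 38.6% of low-mitochondrial barcodes at E7.0, 10.3% at E7.25 and 18% in the E7.5 posterior library, against 11.6%, 21% and 6.59% of comparison barcodes. Without thinning the shares were 43.6%, 12.9% and 22.9% of low-mitochondrial barcodes, against 22.9%, 36.1% and 9.50% of comparison barcodes. So the low-mitochondrial barcodes held more such barcodes than the comparison barcodes at E7.0 and E7.5 posterior and fewer at E7.25. With 1 library per stage that difference was not tested.

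**Figure D5:**
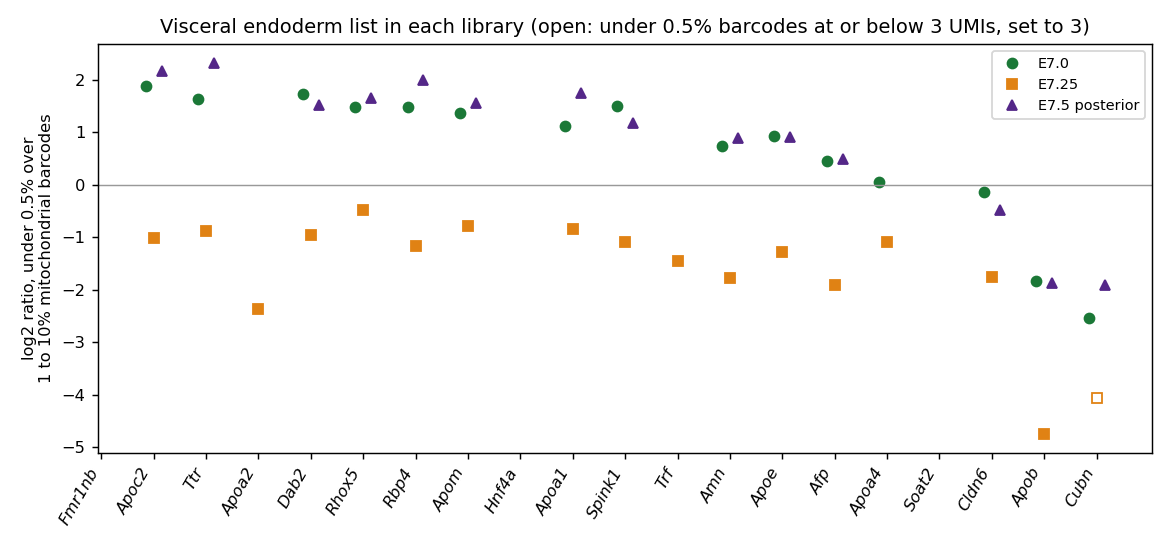
Log2 ratio of each visceral endoderm gene in low-mitochondrial over comparison barcodes, with 1 symbol per library for genes of 30 or more CPM in its comparison barcodes and an open symbol where the low-mitochondrial barcodes held 3 or fewer UMIs. The list's median was 1.11 at E7.0, −1.17 at E7.25 and 1.35 in the E7.5 posterior library, and Apob and Cubn lay below 0 in each.

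The genes of the list differed among themselves at E7.0 and in the E7.5 posterior library, while at E7.25 none of those with 30 or more CPM in comparison barcodes lay above 0. Ttr, the thyroxine carrier transthyretin, had 1281, 480 and 929 CPM in low-mitochondrial barcodes and 412, 886 and 185 CPM in comparison barcodes (log2 ratio 1.17, adjusted p 0.0488, edgeR), and did not pass without E7.0 (0.82). Apoc2, a short apolipoprotein message, had 1395, 522 and 1015 CPM in low-mitochondrial barcodes, against 379, 1049 and 227 CPM in comparison barcodes, and Apoe 1565, 713 and 1197 CPM, against 822, 1722 and 636 CPM. Neither passed. Apob, the very long apolipoprotein message, was lower in every library, with 49.9, 13.0 and 24.6 CPM in low-mitochondrial barcodes and 177, 349 and 90.3 CPM in comparison barcodes (log2 ratio −2.26, chosen after its values were seen). Cubn, the endocytic receptor cubilin, had 14.5 and 12.3 CPM at E7.0 and E7.5 posterior and no UMI at E7.25 in low-mitochondrial barcodes. Comparison barcodes had 83.9, 46.5 and 162 CPM of it in that order. Against comparison barcodes of 1 to 5% mitochondrial share, Apob had a log2 ratio of −0.83 and Cubn one of −1.19, and neither passed. In all, 5 of 20 genes of the list were higher and 2 were lower, beside 4.71% and 29.4% over all genes tested. Without E7.25 15 were higher and 2 lower, and without E7.0 0 were higher and 3 lower. Over all genes tested 678 and 2545 of 7155 were so without E7.25, and 90 and 1188 of 7377 without E7.0. With TMM factors 11 of the list were higher and 2 lower, with DESeq2 0 and 1, and against comparison barcodes of 1 to 5% 14 and 0. Over all genes tested TMM factors gave 1470 and 1387 of 7543 and DESeq2 1096 and 880. Against barcodes of 1 to 5% the counts were 425 and 2109 of 7494. With both groups limited to the middle depth range of the low-mitochondrial barcodes 1 was higher and 5 were lower, with a median of −0.14. Over all genes tested 156 of 8006 were then higher and 1607 lower, and Ttr had a log2 ratio of 0.21. That limit kept 269, 170 and 551 of the 7581, 5076 and 8063 comparison barcodes, so depth and choice of barcodes cannot be told apart there. Thinning to equal depth kept the order of the shares in each library. The direction of this list therefore depended on the library and on the barcodes compared.

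Malat1 was low in barcodes with and without visceral endoderm genes. Among low-mitochondrial barcodes, those with 5 or more such genes had 608, 816 and 204 CPM of Malat1 and those with fewer had 650, 593 and 789 CPM, so Malat1 was below every comparison value in either kind. The median share of ribosomal protein messages was 26.9%, 28.7% and 27.3% in low-mitochondrial barcodes with 5 or more such genes, and 33.7%, 31.9% and 34.3% in those with fewer. Comparison barcodes had 26.9%, 24.4% and 24.1% with 5 or more such genes, and 29.7%, 28.9% and 29.1% with fewer. At E7.0 the groups thus did not differ in this share among barcodes with 5 or more such genes. With all barcodes of 5 or more visceral endoderm genes left out of both groups, the median of the nuclear-retained list was −1.81. In that setting 74 of 81 ribosomal protein messages were higher, beside 344 of 7376 over all genes tested.

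The contrast was alike between E7.0 and E7.5 posterior and less so with E7.25. Across genes, the Spearman correlation of the log2 ratios was 0.83 between E7.0 and E7.5 posterior (3792 genes), 0.57 between E7.25 and E7.5 posterior (3837 genes) and 0.49 between E7.0 and E7.25 (3740 genes), with the fewest low-mitochondrial barcodes and UMIs at E7.25. Of the 7543 genes, 58.0% differed in the same direction in all 3 libraries. The balance of higher and lower genes depended on the scaling. With TMM factors, which shift the ratios by 0.27 on the log2 scale, 1470 genes were higher and 1387 lower (19.5% and 18.4%), against 355 and 2218 with totals alone. Malat1, Xist, Meg3 and Fn1 stayed lower under that scaling.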

How the data were processed

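The authors deposited raw UMI counts per gene and barcode, called and filtered with Cell Ranger 6.0.1 per the file headers. The genome build, the use of strand and the treatment of multiply mapped reads are not stated in the sources used here. Barcodes were used as deposited with no further filter than the rule, and a Scrublet-type score (30 components, 2000 variable genes) marked 518, 225 and 610 doublets, which were left out only in an alternative. UMI counts were summed over low-mitochondrial and over comparison barcodes of each library. The 6 sums were tested with edgeR 4.0.16 (R 4.3.3), by the quasi-likelihood test with a term for the library, since both sums of a pair came from the same library and the sums are paired by construction. Library size was the total of non-mitochondrial UMIs, mitochondrial genes were left out, and 7543 genes with 10 or more CPM in at least 2 of the 6 sums were tested, with a Benjamini-Hochberg threshold of 0.05. Nothing says how many embryos the libraries came from, so p-values measure only the spread between these libraries. With 3 libraries an exact two-sided permutation of signs cannot go below a p of 0.25, so none is given for single shares.

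Simulated counts over 7674 genes were drawn from a single summed profile of the comparison barcodes, with the real totals. On these the test recovered 79% of 100 genes changed by 1 and 15% of 100 genes changed by 0.5 on the log2 scale, with 4 false calls. The simulation held no differences between libraries and changed genes equally often in either direction, unlike the data. Its rates may therefore not carry over to this comparison. Thinning drew 2500 non-mitochondrial UMIs per barcode and left out shallower barcodes. Transcript lengths were those of the longest basic transcript in GENCODE M21 (GRCm38), in which 32158 of 32285 gene IDs were found. Python 3.11.15 with numpy 2.4.6, scipy 1.17.1, pandas 2.3.3, scikit-learn 1.9.0 and matplotlib 3.10.9 did the rest, and DESeq2 1.42.0 was an alternative.

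The members, the gene lists and the marker were chosen with earlier results of these data known. Genes were named by rule, as the 4 with the highest mean level of each list and the 12 highest and 12 lowest ratios among genes of 50 or more CPM past the threshold in 1 direction in all libraries, without mitochondrial, ribosomal protein, Gm and Rik genes. Genes outside the rule are named as chosen after their values were seen. A ratio of a gene with 3 or fewer UMIs in the low-mitochondrial barcodes of a library was computed per library at 3 UMIs. Alternatives covered the scaling, the test, the low-count filter, the library block, each library left out, the limits of the rule, the depth, doublets and visceral endoderm barcodes, and medians relative to transcript length were added after the data were seen.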

Additional observations from a re-analysis of the deposited data

Results flagged for a closer look

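The visceral endoderm list gave ratios of opposite direction in different libraries. Its median log2 ratio of low-mitochondrial over comparison barcodes was 1.11 at E7.0, −1.17 at E7.25 and 1.35 in the E7.5 posterior library. The difference between libraries was not tested, since each stage has 1 library. With both groups limited to the middle depth range of the low-mitochondrial barcodes, the median over the fit was −0.14, against 0.71 with all barcodes. That limit kept few of the comparison barcodes, so depth and choice of barcodes cannot be told apart. The E7.25 value rests on 85 low-mitochondrial barcodes, the fewest of the 3 libraries.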

How the results depend on the processing

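Genes lower in low-mitochondrial barcodes numbered 2218, and 1387 with TMM factors, 880 with DESeq2, 449 with at least 2000 detected genes and 967 to 2545 without each library in turn. Genes higher numbered 355, and 1470 with TMM factors, 1096 with DESeq2, 543 with totals that leave out Malat1 and ribosomal protein genes, 130 with at least 2000 detected genes, 156 with both groups limited to the same depth and 73 to 678 without each library. Without the library block that pairs the sums, 14 genes were higher and 1374 lower, and all 1388 of these calls were shared with the paired test. The median of the nuclear-retained RNAs, −2.05, stayed negative under every alternative, at −1.78 with TMM factors, −1.77 with DESeq2, −2.20 for barcodes under 0.25%, −1.64 with at least 2000 genes, −2.48 at limited depth, −1.81 without barcodes of 5 or more visceral endoderm genes, −1.37 relative to transcript length and −2.20 to −2.08 without each library. The median of ribosomal protein messages, 0.17, was 0.42 with TMM factors, 0.45 with DESeq2, 0.24 with totals that leave them out, 0.031 relative to length and 0.14 to 0.20 without each library. The share of low-mitochondrial barcodes in the E7.0, the E7.25 and the E7.5 posterior library was 2.98%, 1.17% and 3.27% under 0.25%, 0.538%, 0.0641% and 0.423% with at least 2000 genes, and 8.18%, 3.80% and 6.86% with at least 500 genes.

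Some ratios turned sign. At limited depth the visceral endoderm median was −0.14, against 0.71, and the definitive endoderm median −0.31, against 0.44, and the definitive endoderm median was also −0.016 without E7.0. The S phase median was 0.0075 with DESeq2 and 0.038 relative to length, and the G2 and M phase median −0.035 without the E7.5 posterior library and up to 0.094 without the others. With TMM factors Ldha had 0.21, Pgam1 0.25, Atp5b 0.23 and Hspa8 0.22, and with DESeq2 Pgam1 had 0.27, Atp5b 0.25, Hspa8 0.24 and Rbm39 0.012. At limited depth Gm42418 had −0.46, Mesp1 0.42, Cer1 −1.01, Apoe −0.55, Krt7 −0.37 and Hhex −0.021. Gm42418 had −0.020 with at least 2000 genes, and Apoe −0.90 without barcodes of 5 or more visceral endoderm genes. Of the shares of barcodes with lineage genes, 54 moved beyond their interval and 24 did not when thinned to 1500 UMIs, and 76 and 2 with 1 gene required. Requiring 1 gene can only raise such a share, and fewer UMIs leave fewer genes to detect. These counts therefore do not show how stable the shares are. The cause of the turned signs was not tested. The median shift of the ratios was 0.27 with TMM factors and 0.28 with DESeq2, and single genes differed from it. With DESeq2 Cubn went from −2.65 to −3.13 and Tdgf1 from −1.33 to −0.75. Limiting the depth or the genes leaves fewer barcodes. Depth limits the E7.25 values most, and 39, 3 and 32 low-mitochondrial barcodes had at least 2000 genes.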

Other observations

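Of 34 tested genes annotated as lincRNA in GENCODE, which include members of the nuclear-retained list, 16 were lower in low-mitochondrial barcodes and 3 were higher. Over all genes tested 29.4% were lower and 4.71% higher. The median log2 ratio of the lincRNA genes was −0.61, against −0.23 over all genes tested.

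Low-mitochondrial barcodes with 2000 or more detected genes numbered 39 at E7.0, 3 at E7.25 and 32 in the E7.5 posterior library, and had 1297, 1042 and 839 CPM of Malat1. Parietal endoderm genes were found, 2 or more after thinning, in 7.17%, 7.35% and 6.56% of low-mitochondrial barcodes, against 19.7%, 33.7% and 20.2% of comparison barcodes. Neural ectoderm genes were found in the same way in 5.98%, 16.2% and 10.2% of low-mitochondrial barcodes, against 17.4%, 19.7% and 15.9% of comparison barcodes.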
